A study of Mus musculus with 12 samples.

Results

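The replication-dependent histone genes were followed through 12 RNA-seq libraries of mouse bone marrow-derived macrophages, which are macrophages grown in culture from marrow. Members were chosen by name alone, as genes whose mouse symbol begins Hist1h, Hist2h, Hist3h or Hist4h, and no measured value entered that choice. The symbol matched 70 annotated genes, of which 3 are marked as pseudogenes and were left out. The remaining 67 genes comprised 6 of the linker histone H1, 18 of H2A, 18 of H2B, 12 of H3 and 13 of H4. Of the 67, 55 had a row in the table of untreated libraries, 46 had one in the table of TNF libraries and 56 had one in either, among 24465 genes listed in either table. The 11 others (Hist1h2aa, Hist1h2ap, Hist1h2ba, Hist1h2bl, Hist1h4b, Hist2h2aa1, Hist2h2aa2, Hist2h2ab, Hist2h2bb, Hist2h3b and Hist2h3c1) had no row, and neither table holds a row without reads.

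The libraries fall into 4 groups of 3, which are Klf6fl/fl:Lyz2cre macrophages with TNF, Lyz2cre macrophages with TNF, untreated Klf6fl/fl:Lyz2cre macrophages and untreated Lyz2cre macrophages. TNF, an inflammatory cytokine, was given at 10 ng/ml for 6 h. Both genotypes carry the Cre recombinase at the lysozyme 2 locus, which acts in myeloid cells, and the Klf6fl/fl:Lyz2cre genotype adds a pair of floxed alleles of Klf6, a zinc-finger transcription factor. It is called Klf6-deleted here. The labels used here state no age, sex or number of mice and do not say whether replicate libraries are separate cultures or animals. The p-values therefore cover library-to-library spread, which may be technical. The series is about macrophage KLF6 in experimental atherosclerosis.

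Replication-dependent histone genes supply the histones that package newly copied DNA, and their messenger RNA accumulates mainly in S phase. H2A, H2B, H3 and H4 form the nucleosome core, and H1 binds the linker DNA between nucleosomes. Unlike other messenger RNAs, most of these transcripts carry no poly(A) tail and end a few bases after a conserved stem-loop, which the stem-loop binding protein Slbp recognises and which the U7 small nuclear ribonucleoprotein helps to process. In human cells some of the genes, HIST1H1C and HIST2H2BE among them, are also known to make polyadenylated transcripts that run past that site.

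The stem-loop is shown because it defines the family's RNA and because the length of annotated transcript after it is set beside the levels of the members. A match to the consensus GGNNNTTTTNANNNCC with a stem of 6 base pairs was found in the annotated GENCODE vM21 transcripts of 44 of the 67 members, and in 57 of 55450 genes in all (0.103%). The commonest form, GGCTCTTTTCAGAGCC, was in 26 members and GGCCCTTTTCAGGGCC in 7. The lines give the 16 bases of the match in capitals with their flanks, as DNA, 5′ to 3′, on GRCm38.
Hist1h1c (chr13:23739507-23739532, plus strand): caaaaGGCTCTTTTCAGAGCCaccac
Hist3h2a (chr11:58955167-58955192, plus strand): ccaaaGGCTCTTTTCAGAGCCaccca
Hist1h3d (chr13:23576239-23576264, plus strand): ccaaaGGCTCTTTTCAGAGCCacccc
Hist1h4i (chr13:22040961-22040986, minus strand): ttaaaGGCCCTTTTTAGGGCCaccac
Hist1h4h (chr13:23531453-23531478, plus strand): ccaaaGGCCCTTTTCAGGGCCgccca
The form in Hist1h4h is the one found in 7 members, and that in Hist1h4i, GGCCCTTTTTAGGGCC, was found in 2. The annotation continues for 840 bases after the stem-loop in Hist1h1c, 1643 in Hist3h2a, 752 in Hist1h3d and 330 in Hist1h4i, and for 46 in Hist1h4h. The median over the 44 members was 112.5 bases. No match was found in the annotated transcripts of Hist1h2bc, Hist2h2be or Hist1h2bq, which says only that these letters are not in those transcripts.

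Promoters are shown for 4 members that differed between the genotypes in one direction or the other. The lines cover 250 bases before to 50 after the start, from RefSeq on GRCm38.p6, 5′ to 3′ along the gene, with matches on either strand in capitals to the CCAAT box, to the TATA box form TATAAA and to the octamer ATTTGCAT, which POU-domain factors bind.
Hist1h1c (chr13:23738557-23738856, plus strand): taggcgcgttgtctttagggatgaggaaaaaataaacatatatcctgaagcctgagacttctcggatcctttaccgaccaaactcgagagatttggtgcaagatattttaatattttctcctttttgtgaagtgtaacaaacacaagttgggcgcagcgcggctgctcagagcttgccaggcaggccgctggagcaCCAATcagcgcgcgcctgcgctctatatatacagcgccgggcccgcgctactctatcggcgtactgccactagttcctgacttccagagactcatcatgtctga
Hist1h4i (chr13:22041313-22041612, minus strand): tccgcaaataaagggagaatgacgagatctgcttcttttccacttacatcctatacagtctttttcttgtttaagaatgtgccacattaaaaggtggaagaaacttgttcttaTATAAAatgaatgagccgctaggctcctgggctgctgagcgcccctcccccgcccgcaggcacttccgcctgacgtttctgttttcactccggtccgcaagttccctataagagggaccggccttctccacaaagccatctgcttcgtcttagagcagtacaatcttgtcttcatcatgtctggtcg
Hist1h3d (chr13:23575513-23575812, plus strand): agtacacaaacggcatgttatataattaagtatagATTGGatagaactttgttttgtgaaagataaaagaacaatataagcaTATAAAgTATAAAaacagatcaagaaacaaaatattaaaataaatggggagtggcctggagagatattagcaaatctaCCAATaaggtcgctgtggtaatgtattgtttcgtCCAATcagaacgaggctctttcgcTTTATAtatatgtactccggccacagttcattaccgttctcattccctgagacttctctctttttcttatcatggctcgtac
Hist1h2bq (chr13:21810150-21810449, minus strand): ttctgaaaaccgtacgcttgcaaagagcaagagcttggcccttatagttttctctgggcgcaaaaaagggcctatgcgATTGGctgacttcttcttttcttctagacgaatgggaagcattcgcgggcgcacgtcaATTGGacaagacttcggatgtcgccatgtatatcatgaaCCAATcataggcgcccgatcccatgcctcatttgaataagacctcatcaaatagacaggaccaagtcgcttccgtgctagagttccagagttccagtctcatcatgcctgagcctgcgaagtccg
Promoter sequence was matched for 62 of the 67 members. The CCAAT letters stood in 85.5% of them, against 37.4% of all 32544 promoters, in 3 of the 12 H4 promoters and in every promoter of the other families. The TATAAA letters stood in 56.5% of members against 13.6% of all promoters. The octamer stood in 22.6% of members against 1.8% of all promoters, in 7 of 18 H2A promoters and 7 of 16 H2B promoters. No motif contains another, though neighbouring matches can share end letters. Of the 4 genes, Hist1h1c, which fell in untreated Klf6-deleted libraries, and Hist1h2bq and Hist1h3d, which rose, had a CCAAT match. Hist1h4i, which rose, had a TATAAA match and no CCAAT match, and Hist1h3d had both. The letters shown for Hist1h2bq are the same as those of the promoter of Hist1h2br.

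Histone transcripts were scarce in all 12 libraries. RNA was extracted as total RNA and libraries were made with a stranded kit that removes ribosomal RNA and does not select on the poly(A) tail, per the labels. They held 16.9 to 23.4 M reads assigned to genes. All members together took 150.2, 163.8 and 157.6 CPM (reads per 1 M assigned reads) in untreated Klf6-deleted libraries, against 237.9, 246.6 and 234.6 in untreated Lyz2cre libraries. With TNF they took 66.5, 74.98 and 67.3 CPM in Klf6-deleted libraries, against 55.9, 59.1 and 56.7 in Lyz2cre libraries. As a share of reads this is 0.0157% ± 0.000681 in untreated Klf6-deleted and 0.0240% ± 0.000619 in untreated Lyz2cre libraries (SD, n = 3 each). The 95% Wilson interval of a single library's share reached at most 0.00074 percentage points to either side and covers counting error only.

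RNAs known to lack a poly(A) tail were scarce as well. A list of 8 such RNAs was drawn up after the histone levels had been seen, and 3 of them had a row in each table. Rn7sk, the 7SK RNA that restrains transcription elongation, averaged 0.971 ± 0.269 CPM in untreated Klf6-deleted and 5.04 ± 0.399 in untreated Lyz2cre libraries, and 0.610 ± 0.324 in Klf6-deleted and 0.638 ± 0.221 in Lyz2cre libraries with TNF (SD, n = 3). Rmrp and Rpph1, the RNA components of RNase MRP and RNase P, had no row in either table. The 8 RNAs together took between 0.497 and 5.61 CPM in any library. The kit named in the labels does not select against RNA without a tail, and the part of these values in the histone levels was not tested.

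The reads were concentrated in a few members. Hist1h1c, an H1 linker histone gene (chr13:23738808-23740367, plus strand), alone took 56.7% ± 1.54 of the histone reads in untreated Klf6-deleted libraries and 69.9% ± 0.427 in untreated Lyz2cre libraries. The 5 most abundant members (Hist1h1c, Hist1h2bc, Hist2h2be, Hist3h2a and Hist1h4i) took 88.0% ± 0.359 in untreated Klf6-deleted and 95.7% ± 0.299 in untreated Lyz2cre libraries (SD, n = 3). Per length, in CPM per kb of annotated exon (RPKM), Hist1h1c led at 57.1 ± 1.70 in untreated Klf6-deleted and 107.5 ± 3.40 RPKM in untreated Lyz2cre libraries, followed by Hist1h2bc at 20.2 ± 1.14 in untreated Klf6-deleted and 35.1 ± 0.916 in untreated Lyz2cre libraries (SD, n = 3). Next came the H4 gene Hist1h4i at 14.1 ± 2.42 RPKM in untreated Klf6-deleted and 4.27 ± 0.754 in untreated Lyz2cre libraries. In untreated Klf6-deleted libraries Hist1h2bg at 3.71 ± 0.822, Hist2h2be at 3.48 ± 0.152, Hist1h4h at 3.30 ± 1.03 and Hist3h2a at 3.03 ± 0.383 RPKM followed, and each differed from its neighbour in this order by less than their combined spread. At the other end, 41 of the 55 members listed in the untreated table had fewer than 20 reads in every library. With TNF 35 of the 46 listed did. Of the 55, 13 had no read in any untreated Lyz2cre library and 2 had none in any untreated Klf6-deleted library. Over all genes too, 18332 to 18846 had a read in an untreated Lyz2cre library, against 19880 to 20169 in an untreated Klf6-deleted library. These libraries held 17.3 to 19.0 M and 18.9 to 23.4 M reads in that order. The share of all rows without a read in a genotype is not given here.

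**Figure D1:**
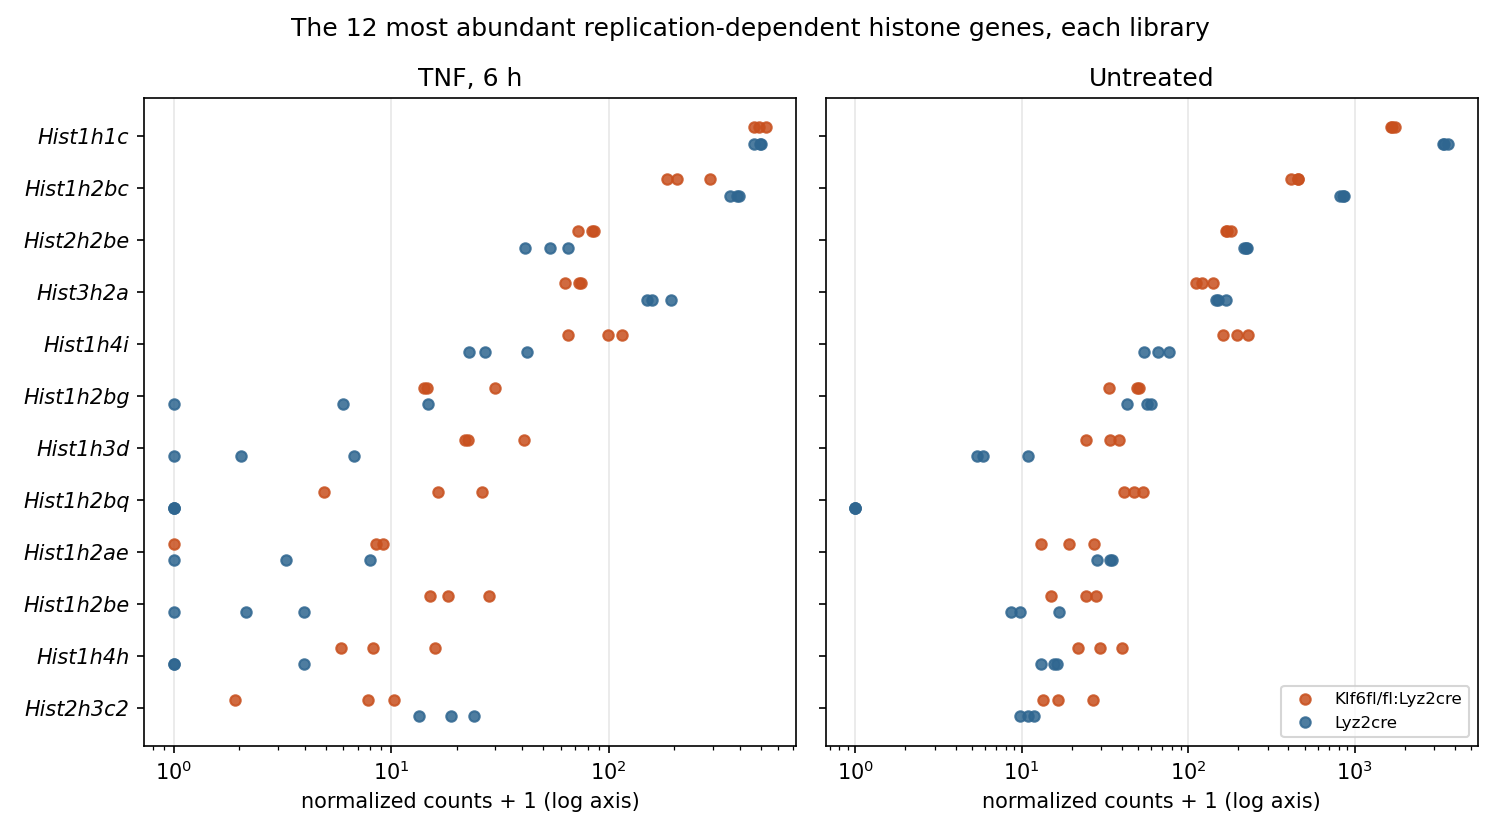
Normalized counts plus 1 on a log axis for the 12 members with the highest mean level over all libraries, with TNF (left) and untreated (right). Each point is a library, and each gene has its Klf6fl/fl:Lyz2cre libraries drawn in the row above its Lyz2cre libraries. Untreated Hist1h1c lies between 1659.5 and 1738 normalized counts in Klf6fl/fl:Lyz2cre libraries and between 3379 and 3629.5 in Lyz2cre libraries, while Hist1h2bq is at 0 in all 6 Lyz2cre libraries.

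Members with over 100 annotated bases after the stem-loop made up 10 of the 15 with at least 20 reads in some library. Of the 22 members with over 100 annotated bases after it, 10 had at least 20 reads in some library and 8 were among the 12 most abundant. Of the 22 with up to 100 bases after it, 2 had 20 reads in some library, and of the 23 with no match 3 did. The median level over all libraries was 0.177, 0.0457 and 0.0635 RPKM in these 3 classes. Sequence shared between copies also differed: of the 32 members with over 50% of their 50-base windows shared with transcripts of other genes, 3 had 20 reads in some library, against 12 of the other 35. The counting of reads that fit several copies is not given in the sources used here, and its part in these levels was not tested.

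**Figure D2:**
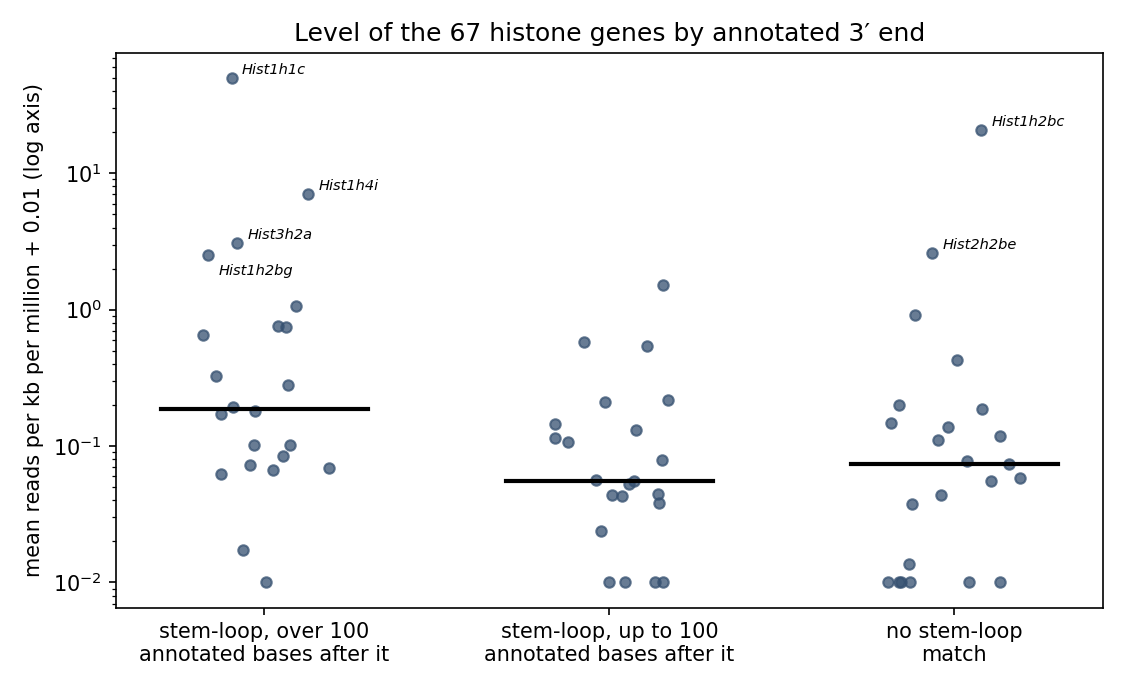
Mean level over the 12 libraries in RPKM plus 0.01 (log axis) for all 67 members, by annotated 3′ end. Points are genes and black lines are medians of 0.177, 0.0457 and 0.0635, and the members above 2 are named.

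Klf6 itself checks the genotype labels. It stood at 7004, 7405 and 6894 normalized counts in untreated Klf6-deleted libraries, against 10055, 9984 and 10315 in untreated Lyz2cre libraries, and at 4211, 4133 and 4140 in Klf6-deleted libraries with TNF, against 7622, 7155 and 7564 in Lyz2cre libraries with TNF. Normalized counts are read counts divided by a size factor per library, set within each table, so that values are compared only within a condition. Klf6 was 1.43-fold lower untreated and 1.79-fold lower with TNF. The values are per gene and do not separate the deleted exons. Klf6 lies on the chromosome that holds 54 of the 67 members, at chr13:5861482-5870394, and the histone genes there lie 15.8 to 18.1 Mb away from it.

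Markers of other cells moved with genotype in the same libraries. By the test given below, 27.6% of all genes tested were called higher and 29.3% lower in untreated Klf6-deleted libraries. With TNF 26.5% were called higher and 30.8% lower, so the counts of markers called are to be read beside these shares. Of 18 stromal markers, such as the collagen gene Col1a1, all 16 that were tested untreated were called higher in Klf6-deleted libraries, as were 12 of 14 with TNF. Their summed level ranged from 4148 to 4413 CPM in untreated Klf6-deleted and from 249.8 to 299.4 CPM in untreated Lyz2cre libraries. With TNF it ranged from 416.8 to 490.0 CPM in Klf6-deleted and from 77.3 to 100.8 CPM in Lyz2cre libraries, with no stromal marker at 0 in any group. The 10 macrophage markers were present in every group, at 7644 to 8106 CPM in untreated Klf6-deleted and 12260.5 to 12290.0 CPM in untreated Lyz2cre libraries, with 1 called higher and 9 lower. With TNF they summed to 10452 to 10469 CPM in Klf6-deleted and 11109 to 11239 CPM in Lyz2cre libraries, with 4 called higher and 6 lower. Of 5 stem and progenitor markers tested untreated, 3 were called higher, and the 8 on the list summed to 17.02 to 21.04 CPM in untreated Klf6-deleted and 9.34 to 10.1 CPM in untreated Lyz2cre libraries. With TNF 2 of them were tested and 1 was called lower, and the sums overlapped, at 5.06 to 5.79 CPM in Klf6-deleted and 3.36 to 5.28 CPM in Lyz2cre libraries. Of 8 monocyte markers, 7 were called higher and 1 lower untreated (median log2 change 1.89), and 1 higher and 3 lower with TNF. Their sums overlapped untreated, at 664.2 to 798.4 CPM in Klf6-deleted and 727.4 to 787.3 CPM in Lyz2cre libraries. With TNF they were 232.6 to 241.2 CPM in Klf6-deleted and 409.3 to 529.7 CPM in Lyz2cre libraries. Of 11 neutrophil and granulocyte precursor markers tested untreated, 4 were called higher and 6 lower. Erythroid, B cell, T and NK cell and dendritic cell lists had 1 or 2 genes tested untreated. B cell sums were 19.03 to 23.77 CPM in untreated Klf6-deleted and 4.485 to 6.508 CPM in untreated Lyz2cre libraries. In the same order, erythroid sums were 420.6 to 465 and 378.3 to 405.2 CPM. T and NK cell sums were 3.595 to 5.046 and 9.139 to 10.48 CPM. Dendritic cell sums were 13.17 to 18.46 and 26.72 to 31.69 CPM. With TNF dendritic cell sums were again lower in Klf6-deleted libraries, and the other sums were higher. Of the endothelial markers, 5 of 6 tested were called higher untreated, and 1 of 4 was called higher and 3 lower with TNF. The part of these differences in the histone and cell cycle results was not tested, and in such bulk RNA fewer cells of a type and less RNA per cell cannot be told apart.

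Without TNF, the deletion went with a smaller summed histone level and with a shift between members. Genotypes were compared by limma on log2(normalized count + 1) over genes that reached 1 CPM in 3 libraries or more, and a gene was called at a Benjamini-Hochberg adjusted p below 0.05. Among untreated libraries, 10 members passed the filter, of which 4 were called higher and 4 lower in Klf6-deleted libraries. Over all 12715 genes tested 56.9% were called, 27.6% higher and 29.3% lower. Scaled to total reads, which moved the median log2 change of all genes by 0.13, 4 members were called higher and 2 lower, where 40.3% of all genes were called higher and 18.9% lower. Without the filter 8 of all 55 listed members were called higher and 4 lower, where 18.2% of all rows were called higher and 16.1% lower. Of the 10, 3 passed through the Klf6-deleted libraries alone (Hist1h2bq, Hist1h3d and Hist1h4h), so these had to differ. Just under the filter were Hist3h2ba, Hist1h2be and Hist2h3c2, and the other 42 listed members reached 1 CPM in no library.

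Most of the difference in the summed level lay in the linker histone gene Hist1h1c. It had 1669, 1738 and 1659.5 normalized counts in untreated Klf6-deleted libraries, against 3443.5, 3629.5 and 3379 in untreated Lyz2cre libraries. The groups lay far apart, with a log2 change of -1.04 ± 0.0423 (SE) and a limma adjusted p of 3.37e-13. Without Hist1h1c the remaining members summed to 1290.3 ± 89.9 normalized counts in untreated Klf6-deleted and 1497 ± 29.9 in untreated Lyz2cre libraries (SD, n = 3), 1.16-fold lower, compared with 1.67-fold lower for all members.

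Of the H2B genes, which encode a core histone, Hist1h2bc (chr13:23684199-23692908, plus strand) fell beside Hist1h1c. It had 414.3, 455.6 and 455.5 normalized counts in untreated Klf6-deleted libraries, against 844.7, 866.8 and 816 in untreated Lyz2cre libraries. Its log2 change was -0.93 ± 0.0653 with a limma adjusted p of 7.17e-10. Hist2h2be (chr3:96221119-96223738, plus strand), also an H2B gene and one with no 50-base window in common with other transcripts, was lower by less. It had 170.9, 180.4 and 167.2 normalized counts in untreated Klf6-deleted libraries, against 219.9, 216.7 and 224.2 in untreated Lyz2cre libraries (log2 change -0.35 ± 0.105, limma adjusted p = 0.00859). The groups did not overlap, and the call was lost when libraries were scaled to total reads (log2 change -0.22, adjusted p = 0.0841).

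Hist1h2bq (chr13:21806612-21810197, minus strand), an H2B gene, was the only member among those passing the filter with no read in a whole genotype. With those under the filter, 13 listed members had no read in any untreated Lyz2cre library. Hist1h2bq passed the filter untreated through the Klf6-deleted libraries alone, so its difference there is no separate support. It had 48, 53 and 57 reads in untreated Klf6-deleted libraries, against 0 in each of the 3 untreated Lyz2cre libraries. With TNF it had 27, 17 and 4 reads in Klf6-deleted libraries, against 0 in each Lyz2cre library. Set against a floor of 3 reads over the Lyz2cre group, it was 44.6-fold higher untreated and 17.9-fold higher with TNF. These folds take the Klf6-deleted reads as they stand and are not lower limits. Of its 50-base windows 97.3% recur in other transcripts, most of them in Hist1h2br, so its assignment of reads is uncertain. Hist1h2br itself had 1, 1 and 0 reads in untreated Klf6-deleted libraries, against 0 in each untreated Lyz2cre library, and no row with TNF. Hist1h2bg (49.7% shared windows), a further H2B gene, had 32.5, 49.8 and 47.9 normalized counts in untreated Klf6-deleted libraries, against 41.6, 55.7 and 59.1 in untreated Lyz2cre libraries, and the groups overlapped.

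The H4 gene Hist1h4i (chr13:22040636-22041362, minus strand) went the other way from Hist1h1c. It had 160.0, 195.4 and 226.5 normalized counts in untreated Klf6-deleted libraries, against 64.6, 53.3 and 75.5 in untreated Lyz2cre libraries. It rose by 1.58 ± 0.168 on the log2 scale, 2.98-fold, with a limma adjusted p of 2.2e-07. Hist1h4h, a second H4 gene (chr13:23531050-23531519, plus strand), had 20.8, 38.9 and 28.4 normalized counts in untreated Klf6-deleted libraries, against 12.0, 14.5 and 15.3 in untreated Lyz2cre libraries (log2 change 0.99 ± 0.344, limma adjusted p = 0.0209). Hist1h4h passed the filter through the Klf6-deleted libraries alone, so its p-value is no separate support for a difference. Its call was lost without any one of 3 libraries, with an adjusted p of 0.129 without untreated Klf6-deleted replicate 2, 0.0552 without untreated Klf6-deleted replicate 3 and 0.0523 without untreated Lyz2cre replicate 1.

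Of the H3 genes, Hist1h3d (chr13:23575763-23577011, plus strand) had 23.3, 32.9 and 37.4 normalized counts in untreated Klf6-deleted libraries, against 9.85, 4.84 and 4.38 in untreated Lyz2cre libraries. It rose 4.53-fold, by 2.18 ± 0.420 on the log2 scale (limma adjusted p = 0.000224). Hist1h3d passed the filter through the Klf6-deleted libraries alone, so its p-value is no separate support for a difference. The second H3 gene among the 12 most abundant members, Hist2h3c2, did not pass the filter and had 12.5, 25.9 and 15.4 normalized counts in untreated Klf6-deleted libraries, against 9.85, 10.9 and 8.75 in untreated Lyz2cre libraries. Of the H2A genes, Hist3h2a (chr11:58954685-58956830, plus strand) had 110.0, 139.6 and 120.2 normalized counts in untreated Klf6-deleted libraries, against 151.0, 168.3 and 146.6 in untreated Lyz2cre libraries. These groups lay just apart, and the call (log2 change -0.34 ± 0.135, limma adjusted p = 0.0424) was lost with edgeR (adjusted p = 0.0514) and DESeq2 (0.0913). It was also lost without the filter (0.0589), with scaling to total reads (0.206) and without any one of 4 libraries, untreated Klf6-deleted replicate 1 (0.163) or 3 (0.0967) and untreated Lyz2cre replicate 1 (0.0642) or 2 (0.128). Exons of Hist3h2a overlap those of Trim17 on the same strand, and Trim17 had 5.98 to 14.2 normalized counts in untreated Klf6-deleted and 10.9 to 15.7 in untreated Lyz2cre libraries. Hist1h2ae, an H2A gene with 18.3, 12.0 and 26.0 normalized counts in untreated Klf6-deleted libraries, against 32.8, 33.9 and 27.4 in untreated Lyz2cre libraries, did not pass the test (limma adjusted p = 0.0566).

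**Figure D3:**
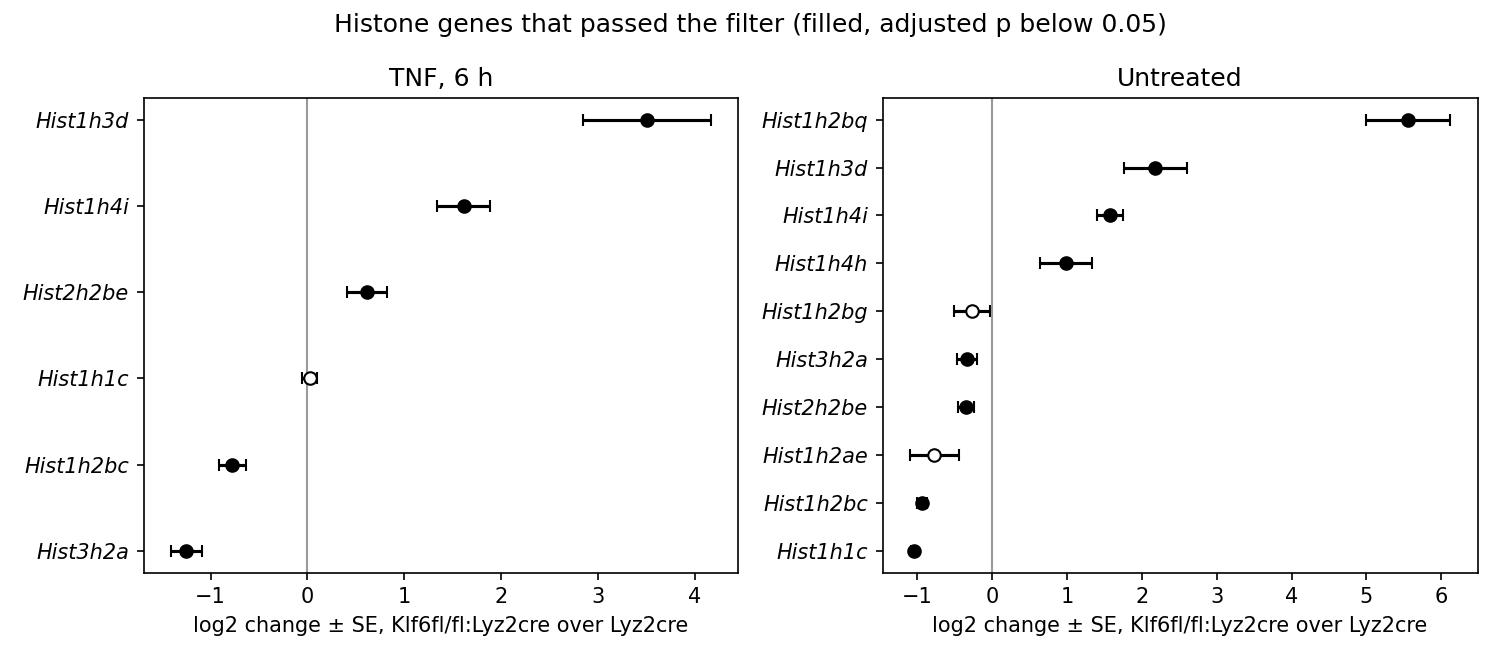
Log2 change between Klf6fl/fl:Lyz2cre and Lyz2cre libraries (x axis, ± SE) for the members that passed the filter, with TNF (left) and untreated (right), with filled points at an adjusted p below 0.05. Hist1h1c is at 0.02 with TNF and at -1.04 untreated, while Hist1h4i is at 1.61 and 1.58, and the fitted value of Hist1h2bq depends on the pseudocount because its Lyz2cre libraries are at 0.

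The many members with few reads were described by their sum. The 55 of the 67 members ranked below the 12 most abundant summed to 160.9, 153.5 and 135.6 normalized counts in untreated Klf6-deleted libraries, against 82.1, 90.8 and 98.4 in untreated Lyz2cre libraries. Their sum was thus 1.66-fold higher, while the sum of all members was lower. Among all 55 listed members, 11 had Klf6-deleted libraries all above the Lyz2cre libraries (20%, where 22.4% of all rows of the table did) and 6 had them all below (10.9%, where 19.8% of all rows did). Both shares were under those of all rows. Hist1h2bp, an H2B gene, had 4, 5 and 11 reads in untreated Klf6-deleted libraries, against 0 in each untreated Lyz2cre library, 5.65-fold higher over the same floor. Hist1h3g, an H3 gene, had 9, 6 and 1 reads in untreated Klf6-deleted libraries, against 0 in each untreated Lyz2cre library, 4.52-fold higher over that floor. Both folds rest on few reads, taken as they stand, and are not lower limits.

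By family, the sums of H1 and H2B were lower and those of H3 and H4 higher in untreated Klf6-deleted libraries. H1 genes summed to 90.2 ± 2.92 CPM in untreated Klf6-deleted and 168.3 ± 5.14 in untreated Lyz2cre libraries, and H2B genes to 40.5 ± 2.09 in untreated Klf6-deleted and 54.8 ± 0.997 in untreated Lyz2cre libraries. H4 genes summed to 13.9 ± 1.94 CPM in untreated Klf6-deleted and 5.75 ± 1.10 in untreated Lyz2cre libraries, and H3 genes to 3.37 ± 0.888 in untreated Klf6-deleted and 1.13 ± 0.164 in untreated Lyz2cre libraries. In these 4 families the groups did not overlap. H2A genes, at 9.23 ± 0.512 CPM in untreated Klf6-deleted and 9.71 ± 0.689 in untreated Lyz2cre libraries, overlapped (SD, n = 3 each). The direction in H1, H2A and H2B rested on the most abundant member. Without it the log2 ratio of the sums in CPM was 0.74 for H1, 0.29 for H2A and 0.27 for H2B, while H3 (1.07) and H4 (0.46) kept theirs. Each H1 gene other than Hist1h1c had at most 13 reads in any untreated library. The spread of these ratios is not given here.

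**Figure D4:**
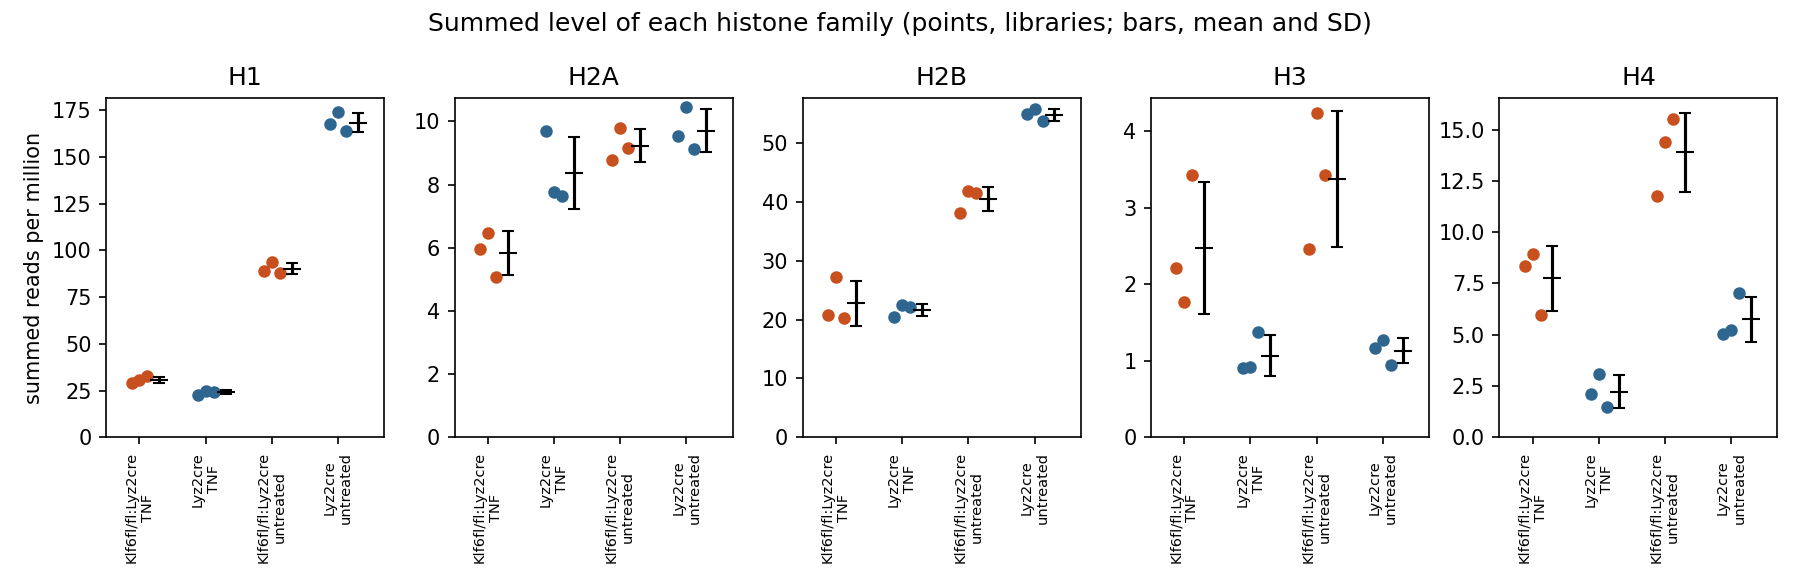
Summed level in CPM of each histone family by library, in Klf6fl/fl:Lyz2cre and Lyz2cre libraries with TNF and then untreated. Points are libraries and bars give mean and SD of 3. In untreated libraries H4 sums average 13.9 in Klf6fl/fl:Lyz2cre and 5.75 in Lyz2cre libraries, while H1 sums average 90.2 in Klf6fl/fl:Lyz2cre and 168.3 in Lyz2cre libraries.

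With TNF the histone pool was smaller in both genotypes, as a share of each library's own reads and with no test, since the conditions were normalized in separate tables. Klf6-deleted libraries averaged 69.6 ± 4.69 CPM of histone reads with TNF and 157.2 ± 6.81 untreated, 2.26-fold lower. Lyz2cre libraries averaged 57.3 ± 1.69 with TNF and 239.7 ± 6.19 untreated (SD, n = 3 each), 4.19-fold lower. The H1 family had the largest such difference in both genotypes, 2.93-fold lower in Klf6-deleted and 7.02-fold lower in Lyz2cre libraries. H3 sums differed least, 1.36-fold lower in Klf6-deleted and 1.06-fold lower in Lyz2cre libraries.

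Between the genotypes with TNF, the summed level of all members was 1144 ± 77.2 normalized counts in Klf6-deleted and 1181 ± 19.6 in Lyz2cre libraries (SD, n = 3 each). In normalized counts the difference, 1.03-fold lower, was smaller than the spread. In CPM the level was 1.22-fold higher, at 69.6 ± 4.69 in Klf6-deleted and 57.3 ± 1.69 in Lyz2cre libraries, and the groups did not overlap, so the direction turned with the scale. With TNF, 6 members passed the filter, of which 3 were called higher and 2 lower, where 57.3% of all 11717 genes tested were called, 26.5% higher and 30.8% lower. Scaled to total reads, which moved the median of all genes by 0.33, 4 members were called higher and 2 lower, where 60.1% of all genes were called higher and 14.6% lower. Without the filter 11 of all 46 listed members were called higher and 4 lower, where 33.1% of all rows were called, 16.2% higher and 16.9% lower. Hist1h3d passed through the Klf6-deleted libraries alone. Just under the filter were Hist1h2bq, Hist1h2bg, Hist1h2ad, Hist1h2be and Hist2h3c2, and the other 35 listed members reached 1 CPM in no library.

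By family with TNF, H4 genes summed to 7.76 ± 1.58 CPM in Klf6-deleted and 2.23 ± 0.816 CPM in Lyz2cre libraries, and H3 genes to 2.47 ± 0.858 CPM in Klf6-deleted and 1.07 ± 0.265 CPM in Lyz2cre libraries (SD, n = 3 each). Both were higher with no overlap, but H3 turned to a log2 ratio of -0.25 without Hist1h3d. H1 genes summed to 30.8 ± 1.71 CPM in Klf6-deleted and 24.0 ± 1.08 CPM in Lyz2cre libraries, a log2 ratio of 0.36 that was 0.03 in normalized counts and 0.86 without Hist1h1c. H2A genes, at 5.84 ± 0.701 CPM in Klf6-deleted and 8.36 ± 1.15 CPM in Lyz2cre libraries, were lower with no overlap and had a log2 ratio of 2.49 without Hist3h2a. Each H1 gene other than Hist1h1c and each H2A gene other than Hist3h2a had at most 20 reads in any library with TNF. H2B genes, at 22.8 ± 3.85 CPM in Klf6-deleted and 21.6 ± 1.09 CPM in Lyz2cre libraries, overlapped, and their log2 ratio of 0.07 was -0.25 in normalized counts and 1.52 without Hist1h2bc.

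Hist1h1c had 466.1, 487.1 and 528.8 normalized counts in Klf6-deleted libraries with TNF, against 465.5, 494.1 and 499.9 in Lyz2cre libraries with TNF. The groups overlapped (log2 change 0.02 ± 0.0793, limma adjusted p = 0.84). Scaled to total reads it was called higher (log2 change 0.35, adjusted p = 0.00105), close to the median of 0.32 that all genes had on that scale. Hist1h2bc had 204.5, 289.9 and 184.7 normalized counts in Klf6-deleted libraries with TNF, against 360.1, 386.1 and 397.9 in Lyz2cre libraries with TNF, and fell by 0.78 ± 0.137 on the log2 scale (limma adjusted p = 0.000144). It was therefore lower in Klf6-deleted libraries in both conditions.

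Hist3h2a was lower by more with TNF than without. It had 61.6, 73.6 and 71.9 normalized counts in Klf6-deleted libraries with TNF, against 193.0, 157.5 and 149.1 in Lyz2cre libraries with TNF (log2 change -1.25 ± 0.159, limma adjusted p = 4.81e-06). Trim17, whose exons it overlaps, had 3.89 to 7.47 normalized counts in Klf6-deleted and 3.44 to 18.5 in Lyz2cre libraries with TNF. Hist2h2be had 71.0, 82.7 and 84.6 normalized counts in Klf6-deleted libraries with TNF, against 52.7, 63.8 and 40.1 in Lyz2cre libraries with TNF (log2 change 0.62 ± 0.210, limma adjusted p = 0.0199). Its groups lay apart in the direction opposite to the untreated one, and the call was lost without any one of 3 libraries, with an adjusted p of 0.0649 without Klf6-deleted TNF replicate 2, 0.0692 without Klf6-deleted TNF replicate 3 and 0.0868 without Lyz2cre TNF replicate 3.

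Hist1h4i had 98.1, 113.6 and 64.2 normalized counts in Klf6-deleted libraries with TNF, against 25.9, 41.2 and 21.8 in Lyz2cre libraries with TNF. It rose 3.06-fold, by 1.61 ± 0.273 on the log2 scale (limma adjusted p = 9.86e-05), a size close to the untreated one. Hist1h3d had 21.5, 20.9 and 39.9 normalized counts in Klf6-deleted libraries with TNF, against 0, 1.03 and 5.73 in Lyz2cre libraries with TNF, and rose by 3.51 ± 0.661 on the log2 scale (limma adjusted p = 0.000271). With TNF too, Hist1h3d passed the filter through the Klf6-deleted libraries alone, so this p-value is no separate support. Hist1h4h, which did not pass the filter with TNF, had 14.9, 7.27 and 4.86 normalized counts in Klf6-deleted libraries with TNF, against 2.98, 0 and 0 in Lyz2cre libraries with TNF. Every Klf6-deleted library of Hist1h4h was above every Lyz2cre library in both conditions.

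Hist2h3c2, an H3 gene, had 9.34, 0.909 and 6.80 normalized counts in Klf6-deleted libraries with TNF, against 17.9, 12.4 and 22.9 in Lyz2cre libraries with TNF, and was not tested. Its order with TNF was thus opposite to the untreated one. The H2A gene Hist1h2ae had 7.47, 8.18 and 0 normalized counts in Klf6-deleted libraries with TNF, against 6.96, 0 and 2.29 in Lyz2cre libraries with TNF, and the groups overlapped. The H4 gene Hist1h4n had 6, 4 and 5 reads in Klf6-deleted libraries with TNF, against 0 in each Lyz2cre library with TNF. It was 5.58-fold higher over the same floor, which is not a lower limit. Untreated, the groups of Hist1h4n overlapped.

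Among all 46 members listed with TNF, 14 had Klf6-deleted libraries all above the Lyz2cre libraries (30.4%, where 21.5% of all rows did) and 4 had them all below (8.7%, where 20.4% did). The 55 members below the 12 most abundant summed to 85.9, 87.2 and 76.8 normalized counts in Klf6-deleted libraries with TNF, against 26.9, 42.2 and 31.0 in Lyz2cre libraries with TNF, 2.5-fold higher. Hist1h2ac, an H2A gene, had 7, 16 and 8 reads in Klf6-deleted libraries with TNF, against 1, 0 and 0 in Lyz2cre libraries with TNF. Untreated, it had 20, 17 and 19 reads in Klf6-deleted libraries, against 8, 6 and 6 in Lyz2cre libraries. The H4 gene Hist1h4k had 2, 0 and 3 reads in Klf6-deleted libraries with TNF against 8, 11 and 4 in Lyz2cre libraries with TNF. Untreated, it had 7, 2 and 1 reads in Klf6-deleted libraries, against 10, 6 and 11 in Lyz2cre libraries. In normalized counts the groups of Hist1h4k lay apart in both conditions, lower in Klf6-deleted libraries, though on few reads. Hist1h2ac and Hist1h4k fall outside the rule for named genes and were chosen after their values were seen.

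The difference between the genotype effects with TNF and untreated was tested over the 4 groups for 11 members, and 4 were called with a higher and 1 with a lower effect under TNF (2 lower without Klf6-deleted TNF replicate 1), where 48.9% of 13062 genes tested were called, 24.1% higher and 24.9% lower. For Hist1h1c the genotype effect was 1.06 ± 0.0792 higher on the log2 scale with TNF than untreated (limma adjusted p = 9.15e-10), and for Hist2h2be 0.96 ± 0.227 higher (0.00154). For Hist3h2a it was lower, at -0.92 ± 0.210 (0.00122). Hist1h4i, at 0.04 ± 0.348 (0.936), and Hist1h2bc, at 0.15 ± 0.165 (0.457), did not pass, which does not show that their effects were equal. The H2B genes Hist1h2be (2.33 ± 0.735, adjusted p = 0.0132) and Hist1h2bg (2.31 ± 0.891, 0.0385) were called on few reads. Hist1h2be reached 1 CPM in 2 untreated and 2 TNF Klf6-deleted libraries and in no Lyz2cre library. It thus entered this test through the Klf6-deleted libraries alone, and its p-value is no separate support. For Hist1h2bg the call was lost without any one of 7 libraries, with an adjusted p of 0.105 without Klf6-deleted TNF replicate 2, 0.0804 without untreated Klf6-deleted replicate 1, 0.0767 without untreated Lyz2cre replicate 3 and 0.0734 without untreated Lyz2cre replicate 2. It was 0.0707 without Lyz2cre TNF replicate 2, where the difference itself was 1.23 and not 2.31, 0.0515 without untreated Klf6-deleted replicate 2 and 0.0509 without untreated Klf6-deleted replicate 3. Hist1h2bg had 13.1, 29.1 and 13.6 normalized counts in Klf6-deleted libraries with TNF, against 4.97, 0 and 13.8 in Lyz2cre libraries with TNF. Hist1h2be had 14.0, 17.3 and 27.2 normalized counts in Klf6-deleted libraries with TNF, against 2.98, 0 and 1.15 in Lyz2cre libraries with TNF, and its exons overlap those of Hist1h1e on the same strand. Untreated, Hist1h2be had 23.3, 14.0 and 26.8 normalized counts in Klf6-deleted libraries, against 7.66, 15.7 and 8.75 in Lyz2cre libraries, and these groups overlapped.

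Genes of DNA replication and mitosis, from lists drawn up with earlier results of these data known, were mostly called higher in untreated Klf6-deleted libraries. Of 38 genes of S phase and replication tested untreated, 34 were called higher and 1 lower (0 without any one of 4 libraries), with a median log2 change of 0.79, where the median of all genes was -0.01 and 27.6% of them were called higher. The nucleotide reductase subunit gene Rrm2 had 680.2, 669.9 and 634.9 normalized counts in untreated Klf6-deleted libraries, against 263.7, 249.4 and 194.7 in untreated Lyz2cre libraries. Uhrf1, which keeps DNA methylation through replication, rose 2.87-fold (limma adjusted p = 5.22e-11), and Dtl, which marks the licensing factor Cdt1 for destruction, 3.04-fold (1.49e-08). All 26 genes of G2 and mitosis were called higher, with a median of 1.34, among them the checkpoint kinase gene Bub1, which had 190.9, 195.4 and 178.6 normalized counts in untreated Klf6-deleted libraries, against 46.0, 65.4 and 45.9 in untreated Lyz2cre libraries. With TNF, 16 of 35 S phase genes were called higher and 2 lower (median 0.29), and 24 of 26 mitosis genes higher (median 1.84), where 26.5% of all genes were called higher. Scaled to total reads 25 of the 35 S phase genes were called higher, where 60.1% of all genes were. Over genes that reached 5 CPM, a filter that fewer genes pass, 10 S phase and 6 mitosis genes were called higher. The share of all genes under that filter is not given here. Cyclin A2, encoded by Ccna2, had 74.7, 85.4 and 98.2 normalized counts in Klf6-deleted libraries with TNF, against 12.9, 8.24 and 14.9 in Lyz2cre libraries with TNF.

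Among 13 measured cell cycle inhibitors, 2 were called higher and 6 lower untreated, and 4 higher and 3 lower with TNF, where 56.9% of all genes tested were called untreated and 57.3% with TNF. Counts of inhibitors called in either direction were thus close to those of all genes. By direction, 27.6% of all genes were called higher and 29.3% lower untreated, and 26.5% higher and 30.8% lower with TNF. Cdkn1c, the p57 inhibitor of cyclin-dependent kinases, had 212.6, 210.3 and 170.5 normalized counts in untreated Klf6-deleted libraries, against 614.9, 648.9 and 656.3 in untreated Lyz2cre libraries (limma adjusted p = 2.2e-11). Cdkn1a, the p21 inhibitor, was 1.92-fold higher untreated and 4.65-fold lower with TNF, where it had 4974, 5463 and 5114 normalized counts in Klf6-deleted libraries, against 25436, 22309 and 24715 in Lyz2cre libraries.

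Genes that transcribe histone genes and process their 3′ ends moved by at most 1.47-fold among those called in untreated libraries. Untreated, 8 of 18 measured genes were called higher and 3 lower, where 27.6% of all genes were called higher and 29.3% lower, with a median log2 change of 0.07. Slbp, which binds the stem-loop, rose 1.17-fold untreated (limma adjusted p = 0.00314) and 1.14-fold with TNF (0.0438). Cstf2, a subunit of the cleavage stimulation factor, rose 1.47-fold (3.41e-07) untreated, Sympk, the symplekin scaffold, 1.15-fold (0.000138), and Casp8ap2, the FLASH protein of histone processing, 1.23-fold (0.00178). Lsm10 and Lsm11, the parts that are particular to the U7 ribonucleoprotein, fell 1.33-fold (0.00185) and 1.40-fold (0.00025) untreated. Npat, the coactivator of histone transcription, had 544.3, 531.3 and 541.5 normalized counts in untreated Klf6-deleted libraries, against 605.1, 565.4 and 495.5 in untreated Lyz2cre libraries, and did not pass the test (adjusted p = 0.695).

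With TNF, 4 of these 18 genes were called higher and 4 lower, where 26.5% of all genes were called higher and 30.8% lower, with a median of -0.02. The 4 higher calls became 1 without Klf6-deleted TNF replicate 2 and 2 without Klf6-deleted TNF replicate 3 or Lyz2cre TNF replicate 3. They became 12 on the scale of total reads, where 60.1% of all genes were called higher. Npat rose 1.29-fold (limma adjusted p = 0.00268), and Hinfp, a factor for H4 gene transcription, fell 1.5-fold (5.07e-06). Tut7 and Tut4, terminal uridylyltransferases of the kind that tail histone RNA before decay, fell 2.41-fold (5.96e-12) and 1.95-fold (9.88e-09), and Cpsf2, a subunit of the cleavage complex, fell 1.62-fold (4.34e-09). Tut7 had 1520.5, 1588 and 1590.3 normalized counts in Klf6-deleted libraries with TNF, against 3952, 3486 and 3886 in Lyz2cre libraries with TNF.

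Of 19 histone chaperones, which carry histones to and from DNA, 13 were called higher and 2 lower untreated, where 27.6% of all genes were called higher and 29.3% lower, with Chaf1a and Chaf1b of the replication-coupled assembly factor CAF-1 higher 1.69-fold (limma adjusted p = 2.23e-06) and 1.61-fold (7.78e-05). With TNF, 8 were called higher and 4 lower, where 26.5% of all genes were called higher and 30.8% lower, with Chaf1b higher 3.19-fold (3.15e-06) and Daxx, a chaperone of H3.3, lower 5.82-fold (2.01e-15). Of 11 replication-independent histone variants, 3 were called higher and 6 lower untreated, and 3 higher and 4 lower with TNF (2 lower without Klf6-deleted TNF replicate 3), beside the same shares of all genes. H1fx, a linker histone variant, had 59.2, 66.8 and 65.0 normalized counts in untreated Klf6-deleted libraries, against 9.85, 9.69 and 12.0 in untreated Lyz2cre libraries (adjusted p = 5.15e-07). Cenpa, the centromeric H3 variant, had 674.4, 634.0 and 621.1 normalized counts in untreated Klf6-deleted libraries, against 1220.0, 1178 and 1047 in untreated Lyz2cre libraries (2.46e-09). H3f3b, which encodes the H3.3 variant used outside replication, was lower in both conditions, 1.99-fold with TNF (1.04e-11) and 1.15-fold untreated (0.000255).

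**Figure D5:**
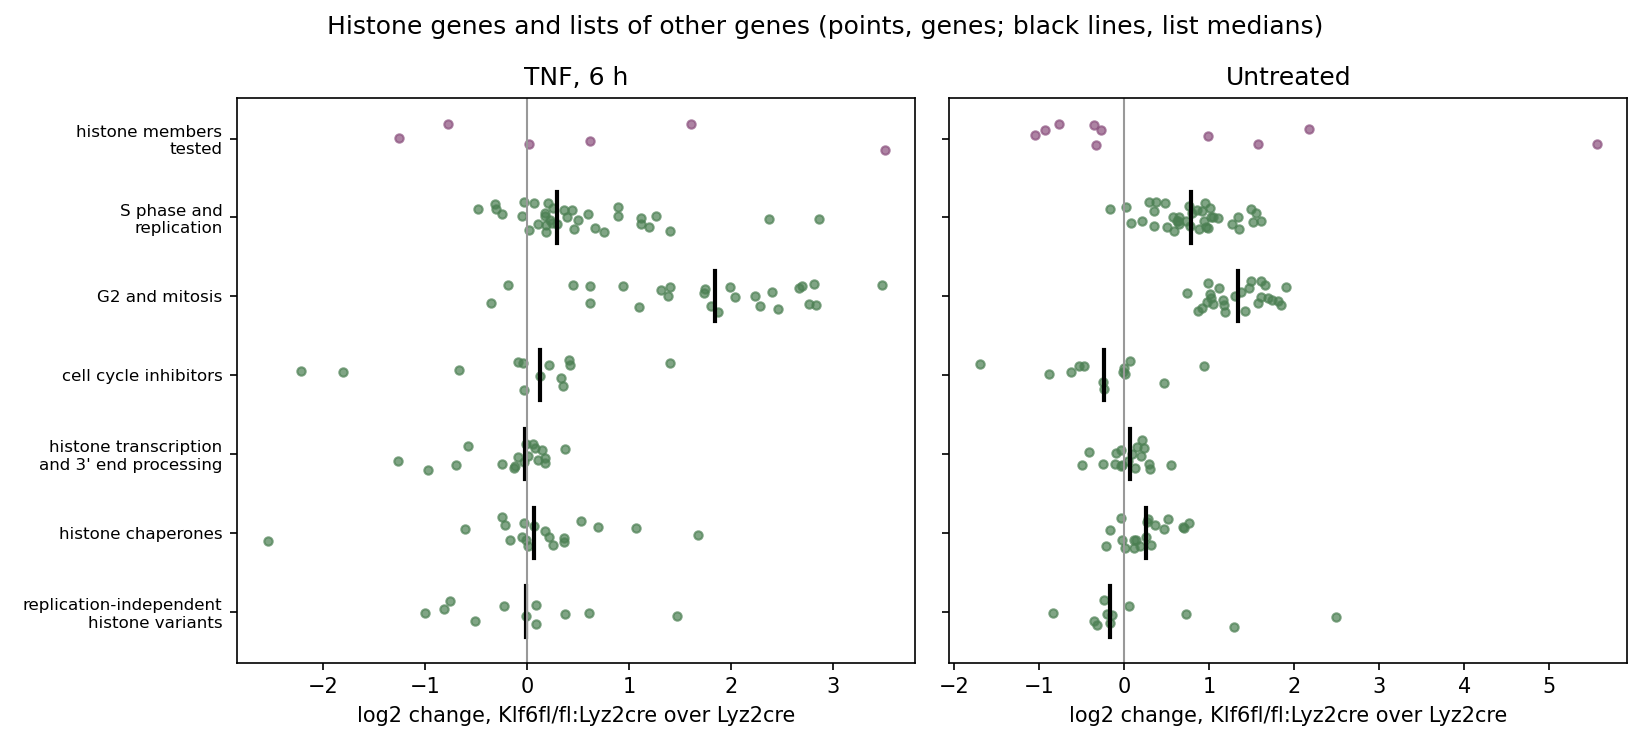
Log2 change between Klf6fl/fl:Lyz2cre and Lyz2cre libraries for the histone members that passed the filter and for 6 lists of other genes, with TNF (left) and untreated (right). Points are genes and black lines are list medians, which untreated are 0.79 for S phase, 1.34 for mitosis and 0.07 for histone transcription and 3′ end processing.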

How the data were processed

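Total RNA of 12 libraries in 4 groups of 3 was analysed, as grouped by the genotype and treatment in the labels. The authors deposited 1 table per condition. The deposited values are a normalized signal per gene: every value was a whole number of reads divided by 1 size factor per library (largest deviation 5.3e-05 reads, tolerance 0.001; 100% of values whole), and the factors equalled median-of-ratios factors recomputed within each table (relative difference up to 6.6e-12). The plan allowed for other units, and its limma test was kept. The submitters' processing notes name Cufflinks and the builds GRCm39 and mm10, and no aligner, counter or strand setting is given in the sources used here. Recovered reads numbered 16.9 to 23.4 M per library, so a level of 1 CPM is 16.9 to 23.4 reads. All 12 value columns were used. Antisense neighbours and near-identical copies can share reads, so such genes are uncertain.

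Symbols came from a name table (22867 of 22896 untreated and 21411 of 21437 TNF identifiers), positions and transcripts from GENCODE vM21 (GRCm38) and promoters from RefSeq (GRCm38.p6). Identical 50-base windows were counted between transcripts in sense orientation. Genotypes were compared within each table with limma on log2(value + 1), with a mean-variance trend, keeping genes that reached 1 CPM in 3 libraries or more, with Benjamini-Hochberg adjustment over all genes. The pseudocount of 1 understates changes of low genes. The genotype effects with and without TNF were compared in limma over the 4 groups. The tests were checked on simulated counts. Other settings tried were DESeq2, edgeR's quasi-likelihood test, filters, pseudocounts, scalings, each library left out and the replicate number as a block. Shares use 95% Wilson intervals, which cover counting error only. A fold against a group at 0 uses a floor of 3 reads over that group, which covers counting error in that group only. The reads of the other group are taken as they stand, so such a fold is not a lower limit.

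The members and lists were chosen with earlier results of these data known. Genes named in full were the 12 most abundant members, up to 3 per family and 4 per list with the largest called changes, all of the 3′ end processing list, Klf6, and those said to have been chosen afterwards, of which the text gives a selection. Low-read members given by their floor and Rn7sk, Rmrp, Rpph1 and Trim17 were also chosen after their values were seen. The software was Python 3.11.15 with matplotlib 3.10.9, statsmodels 0.14.6, pandas 2.3.3 and numpy 2.4.6, and DESeq2 1.42.0, edgeR 4.0.16 and limma 3.58.1 under R 4.3.3.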

Additional observations from a re-analysis of the deposited data

Results flagged for a closer look

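The genotype effect on 5 members differed between TNF and untreated cells in limma over the 4 groups, as a difference in log2 change with TNF minus untreated. It was 2.33 for Hist1h2be, 2.31 for Hist1h2bg, 1.06 for Hist1h1c and 0.96 for Hist2h2be, and -0.92 for Hist3h2a. The first 2 rest on few reads, and the call for Hist1h2bg was lost with a pseudocount of 0.25 (adjusted p = 0.0671) and without any one of 7 libraries, of which Lyz2cre TNF replicate 2 moved the difference to 1.23. Hist1h2be entered the test through the Klf6-deleted libraries alone. Groups of 3 libraries are too small for a test of single outlying libraries.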

How the results depend on the processing

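Of 477 recomputed log2 changes of named members, 446 kept direction and side of the threshold, 23 lost and 8 gained a call, and 0 reversed. Without the filter, where more members were tested, the called members were 8 higher untreated and 11 higher and 4 lower with TNF. For the difference of the effects they were 7 higher and 3 lower of 45 members tested, where 15.5% of all rows were called higher and 16.9% lower. At 5 CPM there were 1, 0 and 2 higher, where fewer members were tested. The numbers tested and the shares of all genes at 5 CPM are not given here, so these counts cannot be set beside the others. Scaling to total reads gave 2 lower untreated and turned 48.5% of all calls being higher into 68.0% untreated, 46.2% into 80.4% with TNF and 49.2% into 69.1% for the difference, whose median moved by 0.19. A pseudocount of 5 gave 2 lower for the difference, and the cause was not tested. The shares of all genes called with that pseudocount, or with a library left out as below, are not given here. Leaving out each library gave 3 to 4 higher and 3 to 4 lower untreated, 2 to 3 higher and 2 lower with TNF, 3 to 5 higher and 1 to 2 lower for the difference, and log2 ratios of the histone share from -0.64 to -0.58 untreated and from 0.22 to 0.31 with TNF. The log2 ratio of the histone share (-0.61 untreated, 0.28 with TNF) was -0.742 and -0.046 in normalized counts, and -0.081 untreated without Hist1h1c. Without the most abundant member, family sums turned to 0.74 for H1, 0.29 for H2A and 0.27 for H2B untreated, and to 2.49 for H2A and -0.25 for H3 with TNF. Several of these ratios, such as H1 untreated and H2A with TNF, rest on few reads. In normalized counts H2B turned to -0.25 with TNF. Same-numbered libraries of the genotypes correlated at 0.152, -0.0378 and 0.158 untreated and -0.0209, -0.0123 and -0.0295 with TNF, so the numbers were not taken as pairs, and the fit with the replicate block gave the same counts (4 higher and 4 lower untreated, 3 and 2 with TNF, 4 and 1 for the difference). At these depths a member with no read in 3 libraries is limited to 3 reads over the group, and most members lie near that limit.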
